A study of Mus musculus with 6 samples.

Results

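The Eph receptors with their ephrin ligands, the Slit ligands with their Robo receptors, and netrin with its DCC and UNC5 receptors were followed through the retinoic acid (RA) differentiation of P19, a mouse embryonal carcinoma cell line. The list holds 33 genes, chosen by symbol: 8 EphA and 5 EphB receptors, 5 ephrin-A and 3 ephrin-B ligands, 3 Slits, 2 Robos, 1 netrin and 6 netrin receptors. Of these, 31 had probesets that carry their symbol alone, 663 probesets in all, among the 16285 genes of the array annotation. Efna3 and Slit3 had no such probeset and were not analysed here. RNA came from undifferentiated cells (Day 0), from neuronal cells after aggregation culture with 1 µM RA for 4 days (Day 7) and from early glial cells after the same RA treatment (Day 10), with biological duplicates on each day. All 6 samples were P19 cells, unsorted, so each array measures a mixed culture, in which fewer cells of a type and less RNA per cell cannot be told apart. The growth protocol in the labels is worded alike for all 3 days and ends with 3 more days of culture, which adds up to Day 7, so the culture of the Day 10 cells after RA is known only by the day in their label. Each sample was hybridized to a Mouse Exon 1.0 ST array, on which nearly every exon has its own group of probes, a probeset.

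These families steer growing axons and migrating cells. Ephs are receptor tyrosine kinases that meet membrane-bound ephrins on a neighbouring cell, with signals passing both ways, and in the nervous system they often repel. EphA receptors mainly bind the lipid-anchored ephrin-As, and EphB receptors the transmembrane ephrin-Bs. Slits are secreted proteins that repel axons through Robo receptors, as at the midline of the spinal cord. Netrin-1 attracts axons through DCC and repels them through UNC5 receptors, and neogenin (Neo1), a relative of DCC, binds netrins and repulsive guidance molecules.

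The gene level on an array was the median over the probesets of the gene of log2(intensity + 16), so that an intensity of 0 gives a level of 4, and changes of dim genes are understated. Levels of different genes depend on their probes and are not compared. A filter at the 30th percentile of the mean gene level left 11399 genes for testing, among them 29 of the 31 members. Epha6 stayed between 5.43 and 5.92 and Efna1 between 5.94 and 6.57 on the 6 arrays, under that filter. A gene was called when the adjusted p from limma was under 0.05 and the change at least 2-fold. With 2 arrays per day, the number of arrays limits the precision.

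The arrays as a whole set the frame for these values. The Day 10 duplicates stood farthest apart, with replicate 2 above replicate 1 by a median of 0.46 (log2) over all genes, and the markers of undifferentiated cells were higher on it: the mean level of 7 such genes was 8.46 on Day 10 replicate 2 and 6.84 on replicate 1, against 8.46 to 8.59 on the Day 0 arrays and 6.33 to 6.90 on the Day 7 arrays. Of 10 neuronal markers, 9 were higher on Day 7 than on Day 0, with a mean level of 7.38 to 7.45 on Day 0, 10.2 to 10.4 on Day 7 and 8.73 to 9.29 on Day 10. Of 8 tested markers of mesenchyme and muscle, 7 were higher on Day 7, with a mean level over the 9 listed of 9.52 to 9.92 on Day 7 and 6.74 to 6.92 on Day 0. Of 5 tested markers of radial glia and astrocytes, 3 (Fabp7, Vim and Nes) were higher and 1 (Aldh1l1) lower on Day 7 than on Day 0. On Day 10 against Day 7 only Gfap, the filament protein of astrocytes, was called (3.51 ± 0.38 SE, log2, adjusted p = 0.00106 from limma), and the median change of the 5 was -0.22. Endothelial markers were mostly under the filter (2 of 8 tested), and Kdr was higher on Day 7 by 3.39. The part of these other cell types in the changes below was not tested.

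On Day 7, 7 of the 29 tested members rose and 2 fell, against Day 0. Epha3, Ephb2, Slit1, Slit2, Robo2, Dcc and Unc5c rose, and Epha1 and Unc5a fell. Over all tested genes, 11.2% rose and 4.53% fell at the same threshold. On Day 10, 5 members stood higher than on Day 0, namely Epha3, Slit2, Robo2, Dcc and Unc5c, over a background of 7.28%, and 6 stood lower, namely Epha1, Epha7, Ephb4, Efna2, Efna4 and Unc5a, over a background of 7.42%. Thus 5 members were higher than Day 0 on both days, 2 were lower on both, and 16 of the 29 were called in no comparison. The median change of the members was 0.29 on Day 7 (0.10 over all tested genes) and 0.01 on Day 10 (-0.11 over all tested genes). The Day 7 and the Day 10 comparison share the Day 0 arrays. The duplicates of Day 7 and Day 0 did not overlap for 18 members that were higher and 8 that were lower on Day 7, where 36.8% and 25.9% of all genes did so. For Day 10 against Day 0 the duplicates were apart for 12 members that were higher and 11 that were lower (22.3% and 30.2% of all genes).

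**Figure D1:**
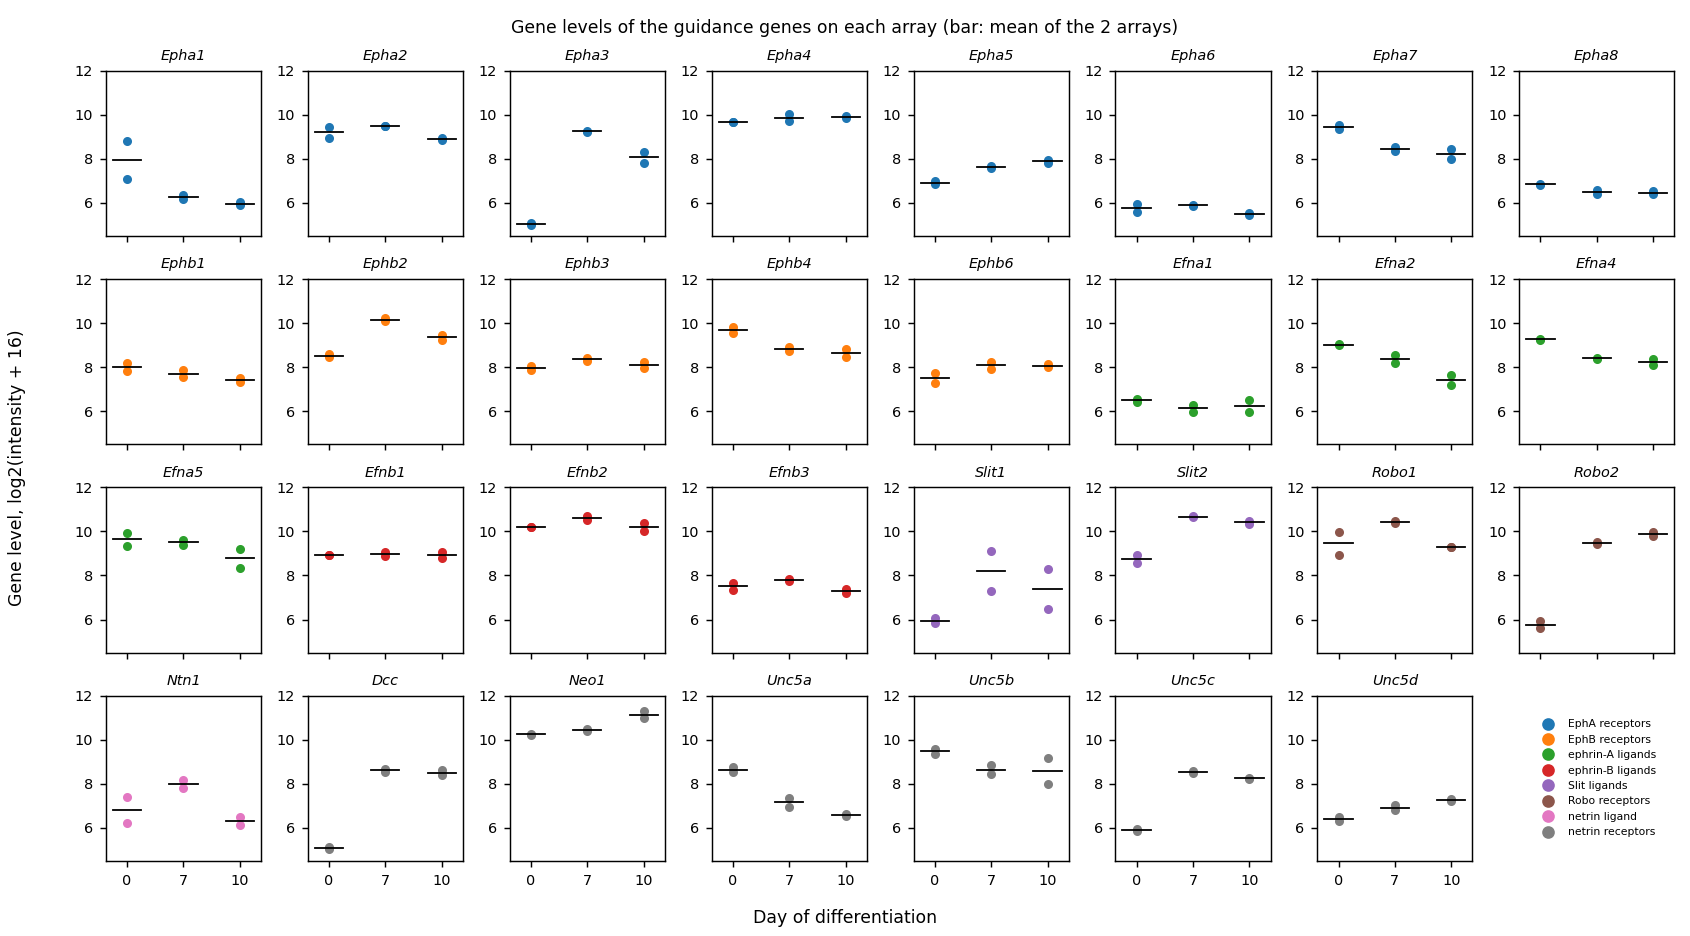
Gene level, log2(intensity + 16), of the 31 genes with probesets on each array (points, 2 per day) by day of differentiation, with the mean of the duplicates as a bar and colours for the families. Epha3, Robo2, Dcc and Unc5c lie between 4.98 and 5.94 on Day 0 and between 7.82 and 9.95 later, while Slit1 shows duplicates that lie far apart on Day 7 and on Day 10.

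The promoters of 2 members that moved in opposite directions are shown, 250 bases upstream of the start in RefSeq (GRCm38.p6), read along the gene. Capitals mark the GC box, GGGCGG or CCGCCC on the other strand, where neighbouring boxes may share a letter. The Epha3 window lies at chr16:63864176-63864425 on the minus strand and the Unc5a window at chr13:54949161-54949410 on the plus strand.
Epha3: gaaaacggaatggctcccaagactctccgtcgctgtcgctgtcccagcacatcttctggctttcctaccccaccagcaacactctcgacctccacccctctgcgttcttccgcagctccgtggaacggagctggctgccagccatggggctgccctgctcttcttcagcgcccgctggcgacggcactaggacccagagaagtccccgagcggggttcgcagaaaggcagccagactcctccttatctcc
Unc5a: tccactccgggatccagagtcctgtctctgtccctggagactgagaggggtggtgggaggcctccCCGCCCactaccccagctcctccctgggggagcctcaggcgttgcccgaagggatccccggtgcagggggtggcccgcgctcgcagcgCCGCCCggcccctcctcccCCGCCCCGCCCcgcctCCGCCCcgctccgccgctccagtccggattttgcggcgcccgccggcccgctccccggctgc
The Unc5a window holds 5 GC boxes and the Epha3 window 0. A window was at hand for 28 listed genes. It held a GC box in 1 of 5 genes that rose on Day 7 (Slit2), in 2 of 2 that fell and in 13 of 17 that were not called. These are counts of genes, some with several windows. By window, 23 of 33 member windows held one, against 32.7% of 32851 windows of the table. Member windows were also richer in CG dinucleotides, with a median of 19 against 6 in all windows. The half-site of retinoic acid receptors, AGGTCA on either strand, was in 1 of 33 member windows (Epha2) and in 14% of all windows. The motif was chosen after counts of several motifs had been seen, and a match is a description of these letters and not a binding site.

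Among the EphA receptors, Epha3 gave the largest change of the 29 members on Day 7. Its level was 5.07 and 4.98 on Day 0, 9.26 and 9.23 on Day 7, and 7.82 and 8.30 on Day 10. It was near the floor in undifferentiated cells, where its level was at the 7.81st percentile of all genes, and no array of a later day came near the Day 0 arrays. The rise on Day 7 was 4.22 ± 0.31 (log2, SE, adjusted p = 1.2e-06 from limma), and the level on Day 10 was 3.03 ± 0.31 above Day 0 (adjusted p = 2.12e-05 from limma). The size of the rise depends on the offset, and was 5.08 with an offset of 1 and 3.27 with an offset of 50. Of its 21 probesets, 19 were at least 2-fold higher on Day 7 than on Day 0. Between Day 10 and Day 7 the change was -1.19 (adjusted p = 0.0907 from limma), which passed the threshold with Day 10 replicate 2 left out (adjusted p = 0.0245).

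Epha1 fell on both days and Epha7 on Day 10. Epha1, known as an Eph of epithelia, had levels of 7.09 and 8.79 on Day 0, 6.19 and 6.34 on Day 7, and 5.91 and 6.02 on Day 10. The Day 0 duplicates lay 1.70 apart, with 16 of 20 probesets at least 2-fold higher on replicate 2, and both exceeded every later array. The fall was -1.68 ± 0.44 on Day 7 and -1.98 ± 0.44 on Day 10 (log2, SE, adjusted p = 0.017 and 0.00842 from limma). Its size rests on Day 0 replicate 2: without it the differences were -0.83 and -1.13 and the gene was under the filter. Without Day 0 replicate 1 they were -2.53 and -2.83, and without Day 10 replicate 1 the Day 10 call was lost (adjusted p = 0.0705).

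Epha7, a receptor of the developing brain, had levels of 9.54 and 9.33 on Day 0, 8.52 and 8.37 on Day 7, and 8.0 and 8.42 on Day 10. All 22 probesets were lower on Day 7 than on Day 0. The Day 10 fall of -1.22 ± 0.31 was called (log2, SE, adjusted p = 0.017 from limma), while the Day 7 difference of -0.99 ± 0.31 (adjusted p = 0.0422) was 1.99-fold and missed the 2-fold limit. The Day 7 fall was called with centring (-1.16), with quantile normalization (-1.05) and with dim probesets left out (-1.01). The Day 10 call was lost without Day 0 replicate 1 (adjusted p = 0.0925) or Day 10 replicate 1 (adjusted p = 0.0508), and at -0.97 with the mean or median polish of the probesets.

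The other tested EphA receptors were not called. Epha5, which guides retinal and forebrain axons, had 6.84 and 7.00 on Day 0, 7.58 and 7.68 on Day 7, and 7.96 and 7.82 on Day 10. Its Day 10 difference from Day 0 was 0.97 ± 0.30 (log2, SE, adjusted p = 0.0422 from limma), 1.96-fold and just under the limit. Epha4, which repels motor and corticospinal axons, stayed between 9.65 and 10.01 on all 6 arrays, Epha2 between 8.83 and 9.50, and Epha8 between 6.40 and 6.85.

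Among the EphB receptors, Ephb2 rose on Day 7. Its level was 8.44 and 8.60 on Day 0, 10.10 and 10.22 on Day 7, and 9.24 and 9.48 on Day 10. The days did not overlap and Day 10 lay between the others. The rise on Day 7 was 1.64 ± 0.30 (log2, SE, adjusted p = 0.00176 from limma), 3.11-fold, with 18 of 23 probesets up at least 2-fold, and the Day 10 difference from Day 0 of 0.84 ± 0.30 was not called (adjusted p = 0.0757).

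Ephb4, best known from veins, had 9.53 and 9.81 on Day 0, 8.74 and 8.93 on Day 7, and 8.46 and 8.80 on Day 10. All 24 probesets were lower on Day 7 than on Day 0. Only the Day 10 fall was called, -1.04 ± 0.31 (log2, SE, adjusted p = 0.0369 from limma). That call was lost without any 1 of 5 arrays, all except Day 10 replicate 2, with adjusted p between 0.0767 and 0.216, and with quantile normalization or centring, where the change was -0.84 or -0.93. It was also lost with an offset of 50 (-0.98) and in a fit of the 2 days compared (adjusted p = 0.0786). With centring the Day 7 fall of Ephb4 was called instead, at -1.01 (adjusted p = 0.0147 from limma). Ephb1, Ephb3 and the kinase-dead Ephb6 were not called, with changes on Day 7 of -0.30, 0.39 and 0.56.

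The ephrins that were called were ephrin-As, and both stood lower on Day 10. Efna2, which helps map retinal axons in the midbrain, had 9.04 and 9.01 on Day 0, 8.54 and 8.19 on Day 7, and 7.17 and 7.66 on Day 10. The duplicates of the 3 days were apart, in falling order by day, but the gene has only 3 probesets. The Day 10 fall was -1.61 ± 0.32 (log2, SE, adjusted p = 0.0041 from limma), and the Day 7 difference of -0.66 ± 0.32 was not called.

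Efna4 had 9.21 and 9.30 on Day 0, 8.43 and 8.37 on Day 7, and 8.10 and 8.36 on Day 10. Its Day 10 fall was -1.03 ± 0.30 (log2, SE, adjusted p = 0.0332 from limma), and it was lost without any 1 of the same 5 arrays (adjusted p between 0.0682 and 0.163), and with quantile normalization or centring (-0.85 or -0.92). It was also lost with the mean of the probesets (-0.77, adjusted p = 0.0559), with median polish (-0.92), with an offset of 50 (-0.95) and in a fit of the 2 days compared (adjusted p = 0.081). With centring the Day 7 fall of Efna4 was called instead, at -1.03 (adjusted p = 0.0145 from limma). Efna5, which repels retinal axons, was not called, with a Day 10 difference of -0.86 ± 0.36 and Day 10 duplicates of 8.35 and 9.21. The ephrin-Bs were not called: Efnb1, Efnb2 and Efnb3 differed from Day 0 by 0.06, 0.42 and 0.27 on Day 7 and by 0.01, 0.01 and -0.22 on Day 10, with SE between 0.30 and 0.31.

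**Figure D2:**
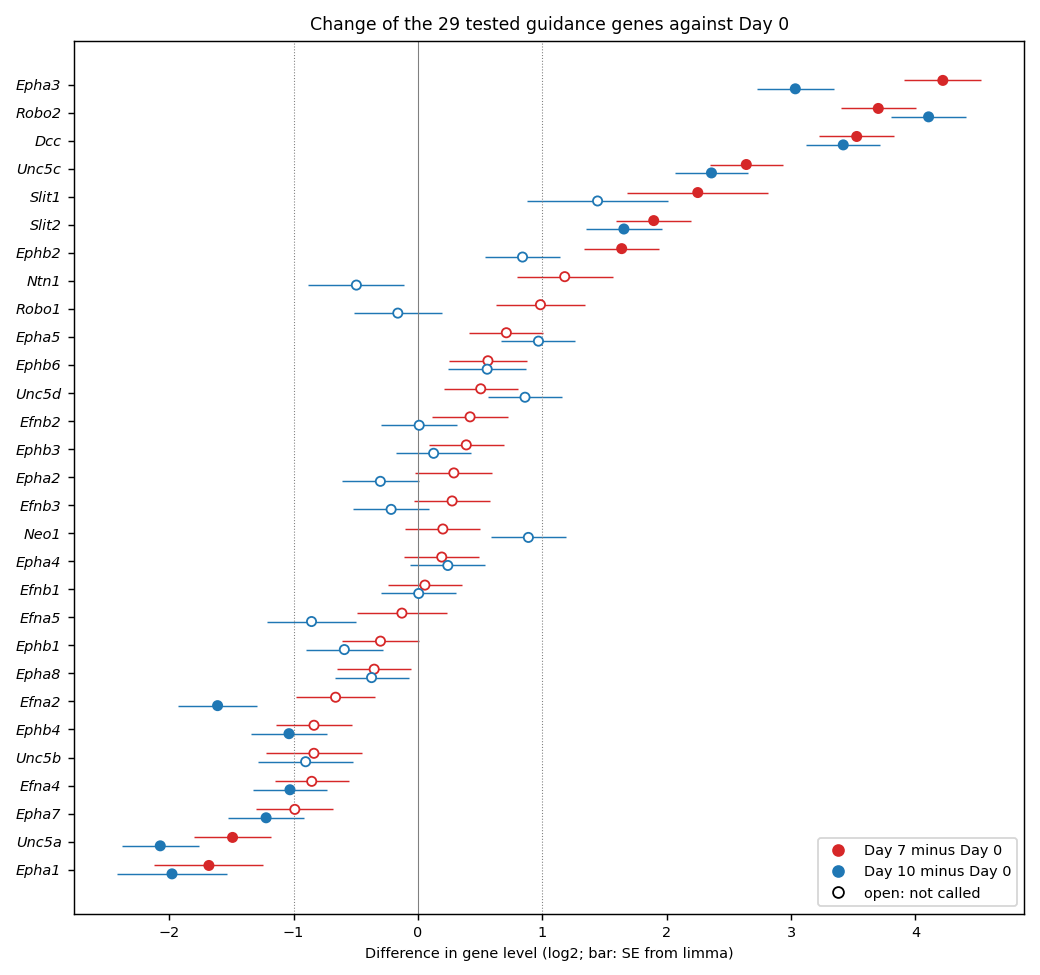
Difference in gene level (log2, bars SE from limma) of the 29 tested genes, Day 7 minus Day 0 in red and Day 10 minus Day 0 in blue, with filled points for called genes and dotted lines at 2-fold. Epha3, Robo2, Dcc and Unc5c lie above 2 in both comparisons, and Unc5a and Epha1 lie below -1 in both.

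Slit1, Slit2 and Robo2 rose. Slit2, a midline repellent, had 8.95 and 8.59 on Day 0, 10.64 and 10.69 on Day 7, and 10.35 and 10.49 on Day 10. Both later days lay above Day 0, by 1.90 ± 0.30 on Day 7 and 1.66 ± 0.30 on Day 10 (log2, SE, adjusted p = 0.000636 and 0.0026 from limma). Of its 47 probesets, 45 were at least 2-fold higher on Day 7.

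Slit1, a Slit of the brain and spinal cord, had 5.83 and 6.08 on Day 0, 7.31 and 9.09 on Day 7, and 6.49 and 8.30 on Day 10. All 4 later arrays exceeded Day 0, but replicate 2 was far above replicate 1 on both later days, with 35 of 41 probesets at least 2-fold higher on Day 7 and 30 of 41 on Day 10. The Day 7 rise was 2.25 ± 0.57 (log2, SE, adjusted p = 0.0142 from limma). It was 1.36 without Day 7 replicate 2 (adjusted p = 0.087) and 3.14 without Day 7 replicate 1, and the call was also lost with trend and robust fits (adjusted p = 0.104). The Day 10 difference of 1.44 ± 0.57 was not called (adjusted p = 0.104), and was called without Day 10 replicate 1, at 2.35 (adjusted p = 0.0413), or without either Day 7 array (adjusted p = 0.013 and 0.0101). It was also called in a fit of the 2 days compared (adjusted p = 0.0108), with the replicate number as a block (adjusted p = 0.00442) and with the mean of the probesets (1.26, adjusted p = 0.0479), while without Day 10 replicate 2 it was 0.54 (adjusted p = 0.528).

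Robo2, a Slit receptor of spinal and retinal axons, had 5.60 and 5.94 on Day 0, 9.45 and 9.50 on Day 7, and 9.80 and 9.95 on Day 10. All 26 probesets were at least 2-fold higher on Day 7 than on Day 0, and 25 on Day 10. The rise was 3.70 ± 0.30 on Day 7 and 4.11 ± 0.30 on Day 10 (log2, SE, adjusted p = 2.28e-06 and 2.19e-06 from limma).

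Robo1 was not called. It had 9.97 and 8.94 on Day 0, 10.39 and 10.49 on Day 7, and 9.30 and 9.29 on Day 10. The Day 0 duplicates lay on both sides of Day 10, and 24 of 34 probesets were at least 2-fold lower on Day 0 replicate 2 than on replicate 1. The difference of Day 7 from Day 0 was 0.98 ± 0.35 (log2, SE, adjusted p = 0.0768 from limma), 1.5 without Day 0 replicate 1 (adjusted p = 0.0195) and 0.47 without Day 0 replicate 2 (adjusted p = 0.574).

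Netrin-1 had its highest levels on Day 7. Ntn1 had 6.20 and 7.42 on Day 0, 8.18 and 7.80 on Day 7, and 6.15 and 6.48 on Day 10. The Day 7 duplicates exceeded all others, and Day 10 overlapped Day 0. Neither difference was called: Day 7 minus Day 0 was 1.18 ± 0.39 and Day 10 minus Day 7 was -1.68 ± 0.39 (log2, SE, adjusted p = 0.0524 and 0.0642 from limma). Both passed under some other settings, such as the mean of the 6 probesets in place of the median (adjusted p = 0.00284 and 0.00229). The Day 7 difference from Day 0 rests on which Day 0 array is used: it was 0.57 without Day 0 replicate 1 (adjusted p = 0.513) and 1.79 without Day 0 replicate 2 (adjusted p = 0.00459).

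Dcc, the attractive netrin receptor, had 5.13 and 5.05 on Day 0, 8.69 and 8.55 on Day 7, and 8.63 and 8.39 on Day 10. It was near the floor on Day 0, at the 8.81st percentile of all genes, and the later days overlapped. The rise was 3.53 ± 0.30 on Day 7 and 3.42 ± 0.30 on Day 10 (log2, SE, adjusted p = 3.15e-06 and 7.05e-06 from limma), with 35 of 38 probesets up at least 2-fold on each day. As for Epha3, the size depends on the offset: with offsets of 1 and 50 the Day 7 rise was 4.31 and 2.65 for Dcc, 4.14 and 3.07 for Robo2, 3.0 and 2.11 for Unc5c, and 2.56 and 1.8 for Slit1.

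The UNC5 receptors split. Unc5c, a repulsive receptor of cerebellar and spinal neurons, had 5.93 and 5.85 on Day 0, 8.47 and 8.59 on Day 7, and 8.26 and 8.24 on Day 10. It rose by 2.64 ± 0.30 on Day 7 and by 2.36 ± 0.30 on Day 10 (log2, SE, adjusted p = 2.92e-05 and 0.000133 from limma). Unc5a, a receptor that also signals cell death without netrin, had 8.78 and 8.52 on Day 0, 6.96 and 7.36 on Day 7, and 6.61 and 6.54 on Day 10.

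The levels of Unc5a were thus highest in undifferentiated cells, opposite to Unc5c. The fall of Unc5a was -1.49 ± 0.31 on Day 7 and -2.07 ± 0.31 on Day 10 (log2, SE, adjusted p = 0.0041 and 0.000543 from limma), and the Day 7 call was lost without Day 7 replicate 1 (adjusted p = 0.103). Unc5b, known from blood vessels, was not called although 14 of 23 probesets were at least 2-fold lower on Day 7. Its difference of Day 7 from Day 0 was -0.84 ± 0.38 (adjusted p = 0.17 from limma), and its Day 10 duplicates were 7.97 and 9.18. Unc5d was not called, with differences of 0.50 on Day 7 and 0.86 on Day 10.

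Neo1 was bright on every day, with 10.24 and 10.26 on Day 0, 10.40 and 10.50 on Day 7, and 10.97 and 11.30 on Day 10. Both Day 10 arrays were the highest, and the difference from Day 0 was 0.89 ± 0.30 (log2, SE, adjusted p = 0.0627 from limma), while the Day 7 difference was 0.20 ± 0.30 (adjusted p = 0.741). The Day 10 difference passed with quantile normalization (1.05, adjusted p = 0.0101) or without Day 10 replicate 1 (1.05, adjusted p = 0.0403).

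**Figure D3:**
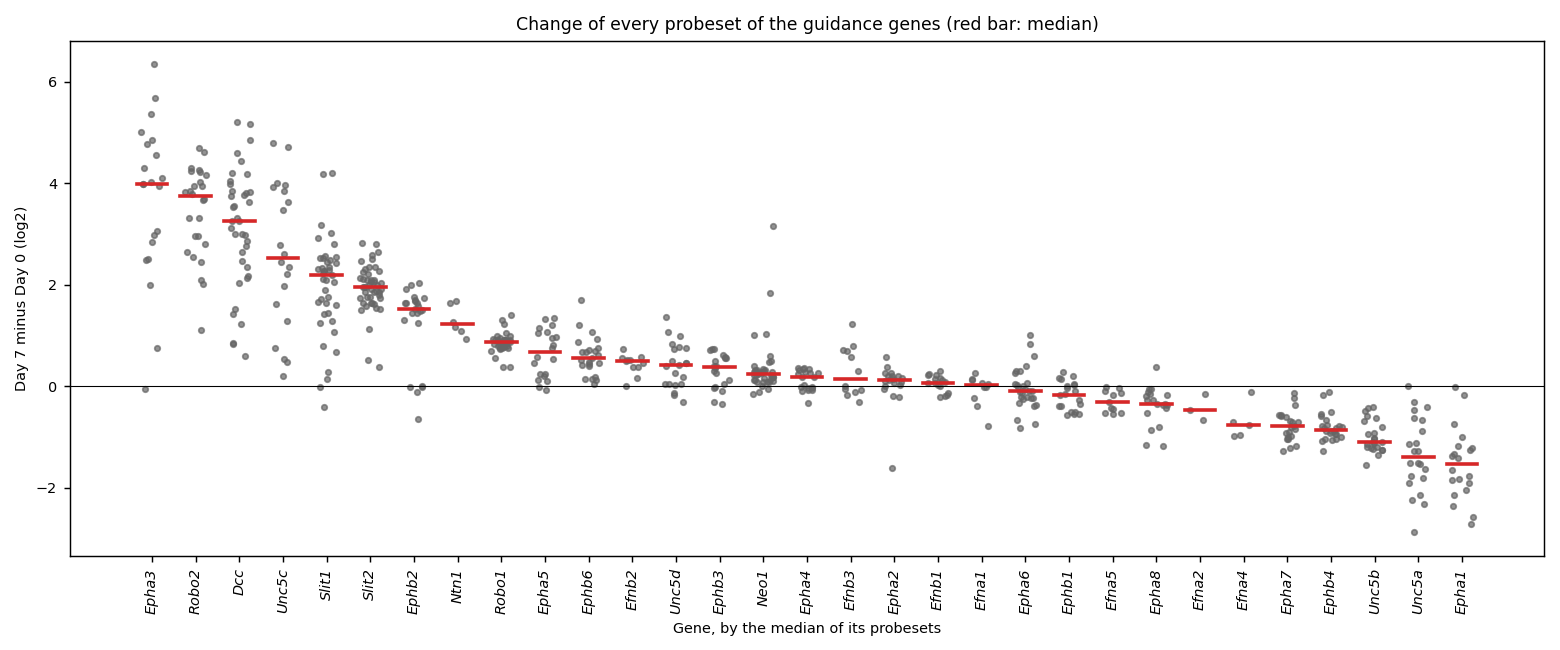
Difference of Day 7 minus Day 0 (log2) for each of the 663 probesets (points) of the 31 genes, with the median of each gene in red and genes ordered by it. Nearly all probesets of Robo2, Dcc and Slit2 lie above 1, and 4 probesets of Ephb2 lie below 0 beside others above 1. Of the 38 probesets of Neo1, 4 lie at 1 or more, and the highest are at 3.16 and 1.84.

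Between Day 10 and Day 7, 0 members were called in either direction by limma, where 0.368% of all genes were higher and 0.333% lower on Day 10. At an unadjusted p under 0.05, 1 member was higher (Neo1, 0.69) and 5 were lower (Epha3, Ephb2, Efna2, Robo1 and Ntn1). No share over all genes is given at that threshold, so these counts are not set against a background. The duplicates were apart for 4 members that were higher and 16 that were lower, where the shares over all genes were 11.1% and 37.4%, and the median change of the members, -0.26, was close to that of all genes, -0.25. Set relative to that median shift, 9 members (Epha7, Epha8, Ephb4, Ephb6, Efna4, Efnb1, Slit2, Dcc and Unc5b) had differences between 0.01 and 0.24 in place of negative ones. Over the same days the median change of the 10 neuronal markers was -1.19, with Map2 and Syt1 lower on Day 10 by limma, and their part in the values of Epha3, Ephb2, Robo1 and Ntn1 was not tested.

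Partner genes of the same pathways were counted from lists of known interactors. Of 22 tested genes around Ephs and ephrins, 4 rose and 1 fell on Day 7, led by Vav3 with 2.19 ± 0.35, the syntenin gene Sdcbp with 1.8 ± 0.36, and Adam10, a protease that cuts ephrins, with 1.38 ± 0.32 (log2, SE). Of 16 around Slits and Robos, 5 rose and 2 fell: Robo3, which lets commissural axons cross the midline, rose by 3.53 ± 0.35, Nell2, a ligand of Robo3, by 2.5 ± 0.34, and the heparan sulfate carrier Sdc2 by 1.97 ± 0.32. The genes that fell were Inppl1 in the first list (-1.02 ± 0.32), and Sdc4 (-1.28 ± 0.32) and Cables1 (-1.07 ± 0.35) in the second.

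Nell2 was the 1 gene of the 3 lists that was called between Day 10 and Day 7, with 9.18 and 8.38 on Day 10 and 10.46 and 10.66 on Day 7 (-1.78 ± 0.34, log2, SE, adjusted p = 0.0303 from limma). Of 22 tested genes around netrin and neogenin, 5 rose and 0 fell on Day 7 by limma. They were led by Draxin (under an older symbol in the annotation), a secreted ligand of DCC, with 3.22 ± 0.31, Flrt2, a ligand of UNC5 receptors, with 3.18 ± 0.31, and Maged1, which binds UNC5 proteins, with 1.88 ± 0.33. The median changes of the 3 lists on Day 7 were 0.27, 0.25 and 0.48, beside 0.10 over all genes. Over all tested genes, 11.2% rose and 4.53% fell on Day 7. Whether the counts of the 3 lists differ from these shares was not tested.

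Exon use was read as the splicing index (SI), the change between days of a probeset relative to its gene level, in 516 member probesets of 24 genes that passed a filter on brightness (genes from the 45th and probesets from the 25th percentile up, as means over the arrays). On Day 7 against Day 0, 0 member exons were called by limma (adjusted p under 0.05 and an absolute SI of at least 1; lowest adjusted p = 0.0541), as were 0.00486% of all 123352 tested probesets. At an unadjusted p under 0.05 there were 71 member probesets, 13.8%, against 6.16% of all tested probesets. diffSplice, the other test run, pools the spread over the probesets of a gene, all measured on the same arrays. Its small FDR values thus do not come from more arrays. It called 20 in 7 genes, over a background of 0.619%. Of these, 14 were in Dcc, Epha3, Robo2 and Unc5c, genes under the brightness filter on Day 0 or Day 7, and 6 were in Ephb2, Neo1 and Slit2. Over all tested probesets, diffSplice called 4.53% in genes under the filter on either day and 0.268% in the others. An SI past 1 was seen for 51 member probesets, 9.88%, against 3.28% of all tested probesets. These lay mostly in genes that were dim on Day 0: 41 of 142 probesets in the 6 genes that were under the brightness filter on Day 0 or Day 7 (17.9% of all such probesets), and 10 of 374 in the other 18 genes (1.96% of all such probesets). On Day 10 against Day 0, 0 member exons were called by limma, over a background of 0.00649%. There were 86 at an unadjusted p under 0.05 (16.7%, against 8.39% of all) and 19 called by diffSplice, over a background of 0.547%. Of the 19, 14 were in genes under the filter on Day 0 or Day 7 (3.24% of all such probesets). The other 5 were in the remaining genes (0.305% of all such probesets). This split leaves out Day 10, where Unc5a had levels of 6.61 and 6.54, also under the level of the filter. Its probesets 4473365 and 5410733 were among the 5. An SI was above 1 for 26 and below -1 for 27, 10.3% against 4.62% of all tested probesets. The counts at an unadjusted p and this Day 10 count were not split by brightness. Genes under the filter on Day 0 or Day 7 held 142 of the 516 member probesets, against 10187 of all 123352. For these counts the shares of members and of all probesets are therefore not like for like. On Day 10 against Day 7, 0 were called by limma, over a background of 0%, 26 had an unadjusted p under 0.05 (5.04%, against 4.21% of all), and diffSplice called 1, over a background of 0.0373%. There, 7 lay above an SI of 1 and 6 below -1, 2.52% against 2.35%.

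Epha3 shows the pattern. Its probeset 4934163 had intensities of 837 and 729 on Day 0, 1185 and 1476 on Day 7, and 1080 and 1055 on Day 10, bright before the gene rose, and its SI of -3.47 ± 0.26 (SE) was the largest of all member probesets tested (adjusted p = 0.0541 from limma). Its probeset 5140402 had intensities of 6.53 and 15.5 on Day 0, 3032 and 1534 on Day 7, and 662 and 1662 on Day 10, with an SI of 2.13 ± 0.43. The 12 largest SI values were in Unc5c (4 probesets), Epha3 (3), Dcc (2), Slit1 (2) and Ephb2 (1). Whether any of these probesets, such as 4934163, also picks up other transcripts was not tested.

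Ephb2 was above the brightness filter on every day, and 4 of its 22 tested probesets did not follow the rise of the gene. Probeset 4319272 had intensities of 202 and 244 on Day 0, 172 and 107 on Day 7, and 75.3 and 93.6 on Day 10, and an SI of -2.28 ± 0.28 on Day 7 (SE, adjusted p = 0.0842 from limma, FDR 6.25e-06 from diffSplice). It was lower on each later day while the gene was higher. Probeset 5344669 overlapped between Day 7 and Day 0, with intensities of 3310 and 3074 on Day 0, 2687 and 3723 on Day 7, and 3992 and 3414 on Day 10 (SI -1.65 ± 0.26). Probesets 5120926 and 4432652 had SI values of -1.74 and -1.65. Their positions in the gene were not analysed here, and the 4 probesets were picked out by their values. Signal from other transcripts in these 4 probesets was not tested.

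The 2 Neo1 probesets below had been taken to RT-PCR by the study, which picked them from these same arrays, so that their SI is a description. Their sequences and the primer pairs beside them are from the study's own tables, and none is in capitals. Their positions in the transcript were not analysed here. In the study's semiquantitative RT-PCR, the longer product of both Neo1 events had a larger share on Day 7 than on Day 0.
Neo1 probeset 5491604: tttgttattaatgctccatacactccag
Neo1E16S: aaggcatccccctttatgag
Neo1E17AS: tcgtgactcagaatggaagc
Neo1 probeset 4604088: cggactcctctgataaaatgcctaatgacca
Neo1E20S: cgccatactacttcaaaatccag
Neo1E21AS: ggtagtcggcttccttttcc
Probeset 5491604 had intensities of 108 and 153 on Day 0, 486 and 521 on Day 7, and 206 and 304 on Day 10. Its Day 7 arrays were highest while the gene level differed by only 0.20. The SI was 1.64 ± 0.23 on Day 7 against Day 0 and -1.65 on Day 10 against Day 7, and -0.01 on Day 10 against Day 0. diffSplice called the first 2 (FDR 0.000621 and 0.0069), and limma did not (adjusted p = 0.111 for the first).

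Probeset 4604088 was dim, with intensities of 0.08 and 4.19 on Day 0, 144 and 146 on Day 7, and 30.9 and 85.6 on Day 10, and was under the brightness filter. It was again highest on Day 7, with an SI of 2.96 there and of 1.05 on Day 10 against Day 0. The Day 0 intensities lay under the offset of 16, and the Day 7 SI was 5.74 with an offset of 1 and 1.71 with an offset of 50, so that its size is not fixed by these data. Of the 37 tested Neo1 probesets, 1 had an SI past 1 on Day 7.

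**Figure D4:**
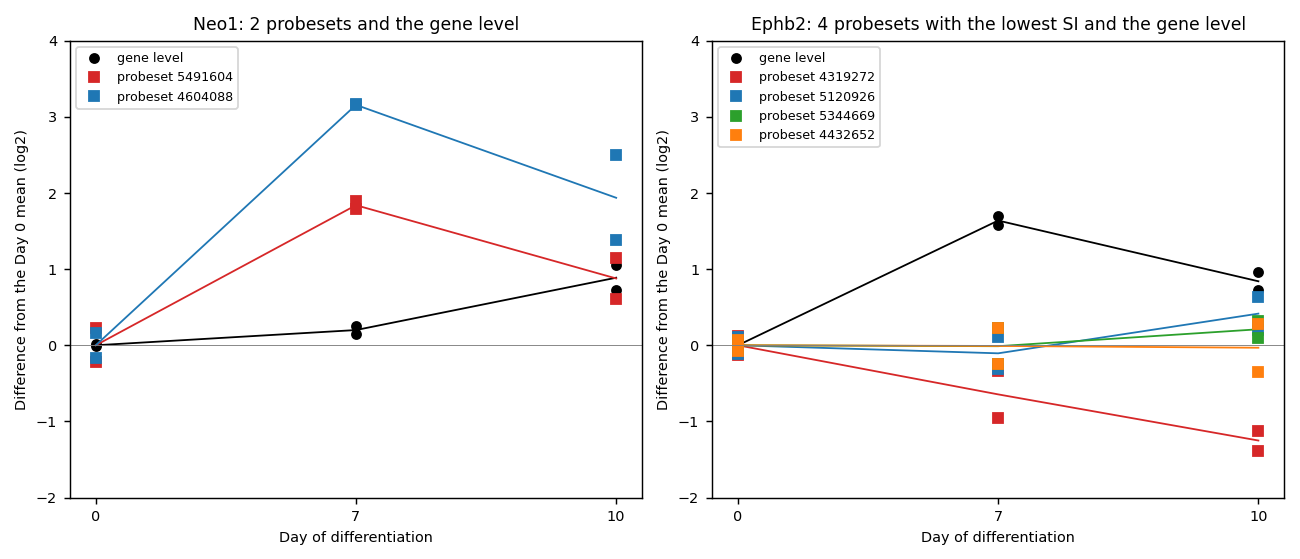
Difference from the Day 0 mean (log2) by day for the gene level (black) and single probesets (colours) of Neo1 on the left and Ephb2 on the right, with a point for each array and lines through the means of the duplicates. The 2 Neo1 probesets peak on Day 7, with changes of 1.84 and 3.16 at an offset of 16, while the gene level changes by 0.20, and the 4 Ephb2 probesets stay between -0.65 and -0.01 on Day 7 while the gene level rises by 1.64.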

How the data were processed

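P19 cells of Day 0, Day 7 and Day 10 were measured in biological duplicate on 6 Mouse Exon 1.0 ST arrays. The authors deposited linear intensities, 1 value for each of 228090 core exon probesets and array. PLIER after sketch normalization is given in the study's methods, but RMA and Affymetrix Expression Console in the submitters' processing notes. Versions and the genome build are not given in the sources used here. Detection p-values and probeset positions were not used here. The study removed probesets flagged as likely to bind other transcripts, and those flags were not used here either. In the platform annotation 208093 probesets carry 1 gene symbol, 4327 several and 15670 none, and those with 1 symbol were used.

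From the intensities, gene levels were the median of log2(intensity + 16) over probesets. A limma model (limma 3.58.1, R 4.3.3) of all 6 arrays, without a block, was used for genes not under the 30th percentile of mean level, with Benjamini-Hochberg adjustment over all of them. For SI, genes had at least 4 probesets and a mean not under the 45th percentile of genes, and probesets one not under the 25th percentile of probesets. Of all tested probesets, 161 are always the median of their gene and have an SI of 0. The fit was tested on simulated data. Values on every array are printed for members called in any comparison and for some others, and are plotted for all members with probesets. The exons are the 12 with the largest SI, the Neo1 pair and 3 Ephb2 probesets added after their values were seen. The members, lists and markers were chosen with earlier results of these data known. Promoter sequences are from RefSeq (GRCm38.p6). Alternatives covered the gene summary, the filters, quantile normalization, centring, the offset, a block for the replicate number, fits to 2 days, trend and robust fits, thresholds, diffSplice and leaving out each array, with the spread of the lone array taken from the other days.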

Additional observations from a re-analysis of the deposited data

How the results depend on the processing

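The labels give no pairing beyond replicate numbers, and the correlation of duplicate differences was -0.08 (Day 0 and Day 7), 0.33 (Day 0 and Day 10) and -0.02 (Day 7 and Day 10). Of the changes of named genes under the alternatives, 762 kept direction and call, 34 passed the threshold where the main value had not, 28 lost it and 16 changed sign.

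Members lower on Day 10 than on Day 7 numbered 1 with median polish, with a fit of the 2 days compared, and with trend and robust fits, and 3 with the mean of log2 values or with the replicate number as a block, against 0. The block, median polish and the mean each gave 8 members higher on Day 7, against 7. Median polish gave 3 lower on Day 7, against 2, a member not called in the main fit among them. For Day 10 against Day 0, median polish gave 6 higher and 5 lower, and the mean 7 higher and 4 lower, against 5 and 6. With genes at or above the 50th percentile, 4 members were higher and 0 lower on Day 7, and 3 were higher on Day 10 than on Day 0, since fewer genes were tested. With arrays centred on the median gene, 6 members were lower on Day 7, and 55.9% of the calls over all genes were higher, against 71.3% without centring (Day 10 against Day 7: 78.8% against 52.5%). At adjusted p under 0.01, 1 member was lower on Day 7 and 3 on Day 10 than on Day 0.

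Member exons called for SI on Day 7 against Day 0 numbered 4 with median polish, 8 with the mean, 3 with an offset of 1, 1 with an offset of 50, 10 with trend and robust fits and 20 with diffSplice. On Day 10 against Day 0 they numbered 1, 7, 1, 5 and 19 with median polish, the mean, an offset of 1, trend and robust fits and diffSplice, and on Day 10 against Day 7 there was 1 with diffSplice. At an absolute SI of 1.5, 27 member exons were past it on Day 7, and 10 were past 1 with the gene filter applied on both days, an alternative chosen after seeing the data.

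Leaving out 1 array gave 6 to 8 members higher and 1 to 2 lower on Day 7, 5 to 7 higher and 2 to 8 lower on Day 10 than on Day 0, 0 to 3 lower on Day 10 than on Day 7, and 37 to 73 exons past 1 in SI. Signs changed as follows, and the cause was not tested. Day 10 minus Day 7 was 0.0187 for Epha7, 0.0456 for Ephb4, 0.0799 for Efna4 and 0.139 for Dcc with quantile normalization, and 0.0524, 0.0824, 0.109 and 0.175 with centring, which also gave 0.0436 for Slit2 and 0.00334 for Unc5c. With 1 array left out it ranged between -1.71 and 0.0995 for Slit1 (positive without Day 7 replicate 2, at 0.085, and Day 10 replicate 1) and between -0.226 and 0.00997 for Dcc (positive without Day 10 replicate 2). Day 10 minus Day 0 of Robo1 was 0.034 with quantile normalization and -0.679 to 0.354 with 1 array left out (positive without Day 0 replicate 1), and that of Ntn1 was -1.10 to 0.113 (positive without Day 0 replicate 2). Brightness limits what can be read for Epha3, Dcc, Robo2, Unc5c and Slit1 on Day 0, where their levels lay between the 7.81st and 25.3rd percentile.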
